A study of Mus musculus with 6 samples.

Results

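The genes of the eukaryotic translation initiation factors were compared between livers of wild-type mice and of Cugbp1 KO mice, 3 days old, on one-colour Agilent oligonucleotide arrays. Members were all genes whose name in the deposited signal table begins with Eif and a digit from 1 to 6. Of 58 such names, 7 that belong to eIF2 or act on it were set aside and are not analysed here, which left 51 genes measured by 77 probes, among 21627 named genes tested in all. Where a gene had several probes under such a name, the one with the highest mean signal over the 6 arrays stands for it. Of the 51, 50 were above the detection level on all 3 arrays of at least 1 genotype and were tested, and 49 of these were detected on all 6 arrays. Cugbp1 is the older name of Celf1, an RNA-binding protein of GU-rich elements that acts on splicing, decay and translation of its target transcripts. There were 3 arrays of each genotype, numbered 1 to 3, each of total liver RNA labelled with Cy3. The strain, the knockout allele and whether the replicates came from separate litters are not given in the sources used here, and the p-values rest on the spread among these 6 arrays, which may be technical.

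Initiation factors bring the ribosome to the start codon of a messenger RNA. The eIF4F complex binds the cap through eIF4E, with eIF4G as scaffold and eIF4A as RNA helicase, while eIF3, eIF1, eIF1A and the eIF2 ternary complex load the small ribosomal subunit. eIF2B recharges eIF2 with GTP, the 4E-binding proteins keep eIF4E from eIF4G when mTORC1 is inactive, and eIF5 and eIF5B act when the start codon is recognised and the subunits join. Liver makes most plasma proteins, so this machinery is in heavy use in hepatocytes, and CELF1 protein has been reported to bind eIF2 in liver. The Argonaute genes Ago1 to Ago4, which carry small RNAs, are members only because the array names them by their older symbols, Eif2c1 to Eif2c4.

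Several transcripts of the translation machinery begin with a C followed by a run of pyrimidines, the 5′ terminal oligopyrimidine motif through which mTORC1 controls their translation. The starts of 10 eIF3 genes are shown because eIF3 is the complex with the most members here. The windows below run from 10 bases before to 20 bases from the start annotated by RefSeq (GRCm38.p6), 5′ to 3′ on the strand of the gene, and capitals mark every stretch of a C followed by at least 4 C or T that begins within 5 bases of the annotated start. Windows of Eif3e, Eif3h and Eif3i are not shown.
Eif3a, chr19:60790674-60790703, minus strand: ctcgggcggcggcgctgccgccgcgaggga
Eif3b, chr5:140419295-140419324, plus strand: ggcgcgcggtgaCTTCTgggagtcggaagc
Eif3c, chr7:126566347-126566376, minus strand: ctgctcagagggactcggcagcttagctgg
Eif3d, chr15:77970805-77970834, minus strand: agggccatttacgacagcgctggtcgccgt
Eif3f, chr7:108934405-108934434, plus strand: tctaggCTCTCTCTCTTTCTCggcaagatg
Eif3g, chr9:20898571-20898600, minus strand: acccgggctgggagctgcgtggagttaaga
Eif3j1, chr2:122028570-122028599, plus strand: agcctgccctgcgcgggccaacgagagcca
Eif3k, chr7:28981869-28981898, minus strand: aaccggcgctggtgctgaaagcgcctttcc
Eif3l, chr15:79075213-79075242, plus strand: gagttCTTCTTCCgCTCTCTCCCacgggct
Eif3m, chr2:105017008-105017037, minus strand: cggtcggcgtgtttctggatcggagcgtct

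A window was at hand for 38 member genes. In 1 of them, Eif3f, the letters read from the annotated start itself were a C followed by at least 4 C or T, within a longer run that begins upstream of it, a share of 2.63% against 3.01% of 27025 genes in the same table and 21.3% of 61 ribosomal protein genes. With the start allowed to lie within 5 bases, 9 of 38 members held such a run (23.7%), against 21.2% of all genes and 47.5% of the ribosomal protein genes. Annotated starts can be off by several bases, only the strand of the gene was searched, and no match says only that these letters are not in the window. Eif3f itself differed by -0.13 on the log2 scale, within the range of the 37 other members with a window, -0.37 to 0.46, whose median was -0.05.

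Levels below are log2 of the array signal after scaling each array to its 75th percentile, and differences are knockout minus wild-type on that scale. The raw 75th percentile lay between 350.2 and 534.8, and arrays correlated at 0.955 to 0.984 across features. Celf1 was 12.04, 11.84 and 11.78 on wild-type 1 to 3 and 9.02, 8.61 and 8.94 on knockout 1 to 3, so the genotype labels fit the targeted gene on all 6 arrays, although its difference of -3.03 ± 0.22 (SE) had an adjusted p of 0.0556 by limma and did not pass 0.05. The labels call the knockout mice male, but the Y-linked gene Ddx3y was at 10.7 on wild-type 1 and on knockout 1 and at 1.09 to 1.88 on the other 4 arrays, where the brighter probe of Xist, the RNA of the silenced X chromosome, was at 10.1 to 10.8. The 8 hepatocyte markers were high on every array. The 6 skeletal muscle markers were higher on wild-type 3, knockout 2 and knockout 3 than on wild-type 1 and 2, by a median of 7.24, 6.68 and 9.36, exocrine pancreas markers were higher on knockout 2 by 7.05, and erythroblast markers were lower there by 2.66. Immediate early genes were higher on wild-type 3 by 3.44 and on knockout 3 by 2.07.

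No initiation factor gene passed the threshold. In the limma fit over 30929 features with Benjamini-Hochberg adjustment, 0 of 50 members had an adjusted p under 0.05, where 0.00323% of all features (1 feature, lower in knockout and not Celf1) did, and every member had an adjusted p of 1.00. At an unadjusted p under 0.05 there was 1 member, Eif4ebp3, against 2.98% of all features, or 1.44% with knockout lower, as it was. The background itself was therefore close to empty, and the 6 arrays leave room for differences that they could not call. In 45 of the 50 members the difference was smaller than the larger of the within-group SDs, a share not counted over all features.

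The differences were small. They ran from -0.84 for Eif4ebp3 to 0.46 for Ago1, with a median SE of 0.28. Within 0.5 of zero on the log2 scale lay 49 of 50, against 25741 of 30929 features. The 95% interval of the difference lay wholly within 1 on the log2 scale, a doubling or halving, for 37 of 50 members. For the others a change of that size is not outside the interval. The same share over all features was not counted. Of the 50, 35 were lower and 15 higher in knockout with a median of -0.06, and 50.4% of all features were lower with a median of -0.0024. Among 4038 features whose mean signal lay between the quartiles of the members, 52.7% were lower and the median was -0.01. Of these, 3688 lay within 0.5 of zero. Without any scaling of the arrays the split of the members turned to 19 lower of 50 and their median to 0.05, when the median of all features also moved, to 0.11. The groups did not overlap for 3 of 50 members, Eif4ebp3 and Eif4h lower and Ago4 higher in knockout, where 6.74% of all features did not overlap, 3.2% with knockout lower and 3.54% with knockout higher.

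**Figure D1:**
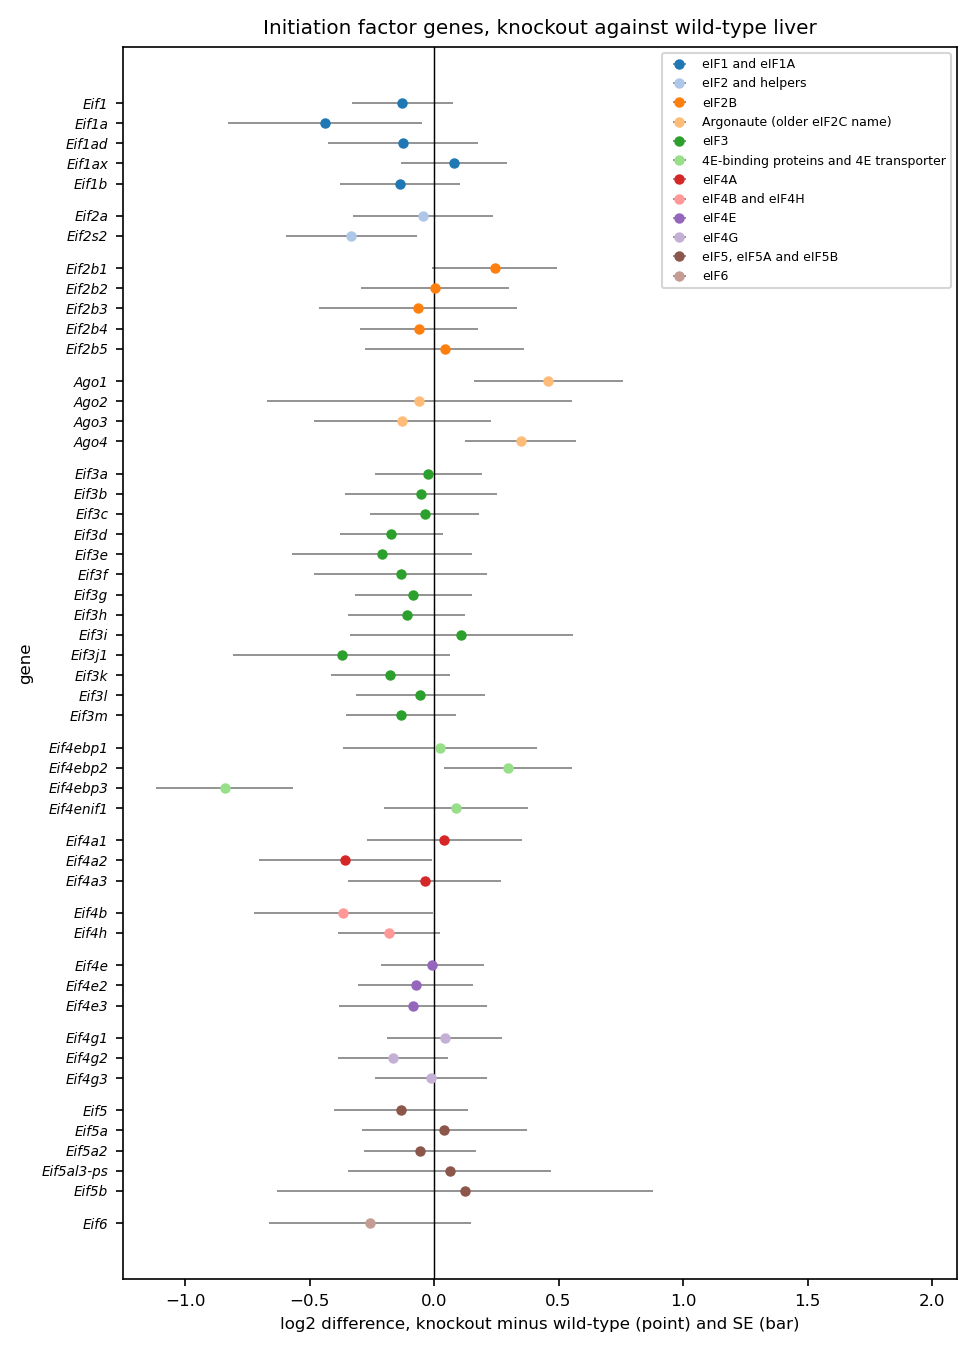
Log2 difference (knockout minus wild-type, horizontal axis) of each of the 50 tested initiation factor genes, grouped and coloured by complex, with bars for the SE of the limma fit (3 arrays a genotype). Only Eif4ebp3 lies beyond 0.5 on either side, at -0.84, and for eIF3 12 of 13 points lie left of the zero line, although the median of eIF3 was 0.00441 without scaling and 0.03 without knockout 1.

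The 4E-binding proteins, which bind the cap-binding protein eIF4E and are released from it when mTORC1 phosphorylates them, held the member with the largest difference. Eif4ebp3, the third gene of the family, was at 14.32, 14.54 and 14.72 on wild-type 1 to 3 and at 13.68, 13.29 and 14.09 on knockout 1 to 3. All 3 knockout arrays lay below all 3 wild-type arrays, with the lowest value on knockout 2. The group values were 14.53 ± 0.20 and 13.69 ± 0.40 (SD, n = 3 each). Signal was thus 1.79-fold lower in knockout, -0.84 ± 0.28 (SE) on the log2 scale with a 95% interval of -1.50 to -0.18. By limma the unadjusted p was 0.0195 and the adjusted p 1.00, so the difference did not pass. It was lower in knockout under all 20 alternatives run, from -1.04 to -0.56, with an unadjusted p between 0.0108 and 0.0662 and an adjusted p between 0.654 and 1.00 in the 19 that give a test. Leaving arrays out could not turn this sign, because the groups do not overlap. The detection, trend, block and probe-averaging settings reuse the only probe of this gene. The shared sign is therefore not independent support. The hepatocyte markers were also lower in knockout for 7 of 8, with a median of -0.29, no adjusted p under 0.05 and a summed signal of 2456970 to 2621760 on the wild-type arrays and 1909130 to 2358030 on the knockout arrays, lowest on knockout 2. Their part in the Eif4ebp3 difference was not tested. In bulk liver RNA, fewer cells of a type and less RNA per cell cannot be told apart.

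The relatives of Eif4ebp3 had overlapping groups. Eif4ebp1, the best studied target of mTORC1 in the family, was at 13.41, 12.45 and 13.84 in wild-type and 13.44, 12.94 and 13.38 in knockout. The groups overlapped fully, and the difference was 0.02 ± 0.39 (SE). Eif4ebp2 was at 12.52, 12.15 and 11.76 in wild-type and 12.40, 12.54 and 12.38 in knockout. Its wild-type arrays spread over a wider range than its knockout arrays and enclosed 2 of the 3, and the difference was 0.30 ± 0.26 (SE, unadjusted p = 0.284 by limma). Eif4enif1, which carries eIF4E into the nucleus and to P-bodies, differed by 0.09 ± 0.29 (SE). The differences between relatives were not tested against each other.

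**Figure D2:**
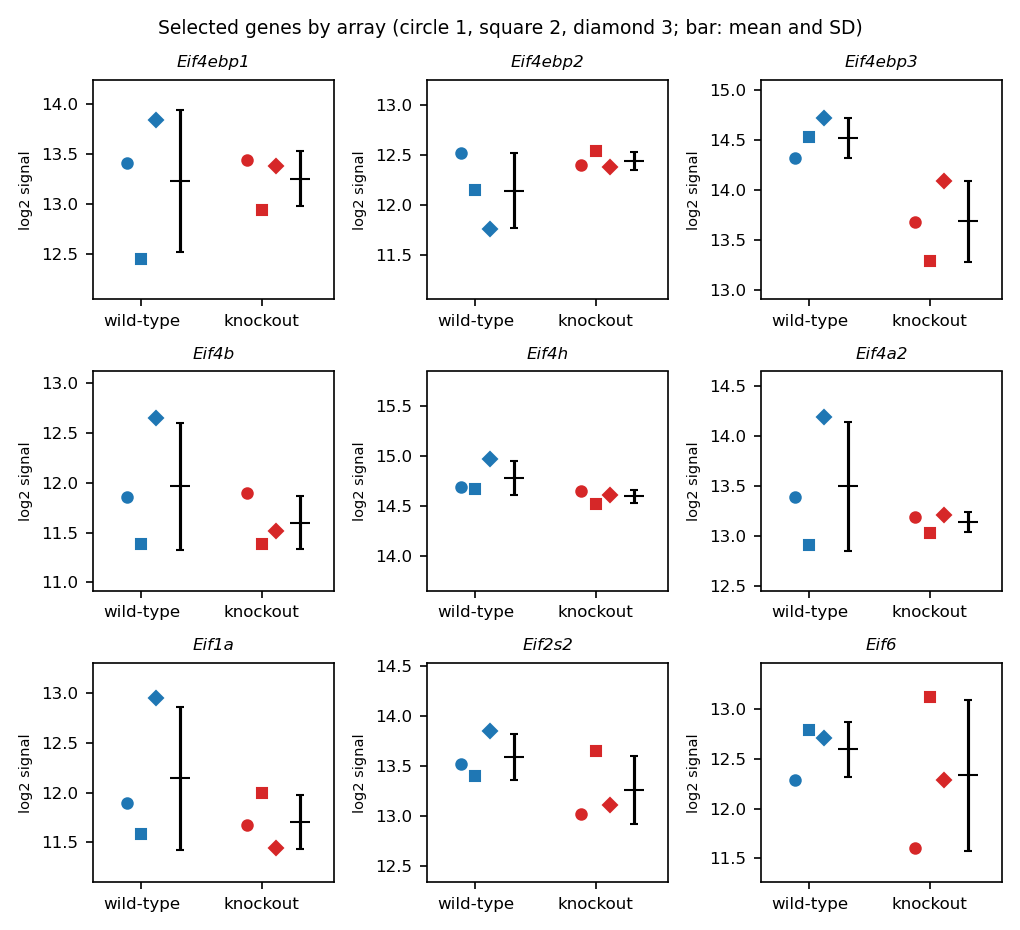
Log2 signal of 9 initiation factor genes on each array (circle, square and diamond for replicates 1, 2 and 3; bars are mean and SD of 3 arrays), each panel spanning the same range of log2 units. Only Eif4ebp3 and Eif4h have groups that do not overlap. Wild-type 3 lies above the other 5 arrays in Eif4b, Eif4a2, Eif1a, Eif4ebp1, Eif4ebp3, Eif4h and Eif2s2, and below them in Eif4ebp2.

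The remaining cap-binding factors, 11 genes, had a median difference of -0.07. The helicase gene Eif4a2 was at 13.39, 12.90 and 14.19 in wild-type and 13.18, 13.02 and 13.20 in knockout. Wild-type 3 stood above the other 5 arrays, which ran together, and the difference was -0.36 ± 0.35 (SE). Eif4b, a cofactor that stimulates the helicase, was also highest on wild-type 3, with 11.85, 11.39 and 12.65 in wild-type and 11.89, 11.38 and 11.52 in knockout, and a difference of -0.36 ± 0.36 (SE). The further probes of both genes, at -0.36 for Eif4a2 and -0.29 and -0.44 for Eif4b, were also highest on wild-type 3. Eif4h, the other helicase cofactor, was at 14.69, 14.67 and 14.98 in wild-type and 14.66, 14.52 and 14.61 in knockout. Its groups did not overlap, by a gap of hundredths between wild-type 2 and knockout 1, and the difference of -0.18 ± 0.20 (SE) had an unadjusted p of 0.406 by limma.

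Eif4a1, the main cytoplasmic helicase, was at 14.59, 15.06 and 14.30 in wild-type and 14.56, 15.14 and 14.37 in knockout. Here replicate 2 was highest and replicate 3 lowest in both genotypes, and the difference was 0.04 ± 0.31 (SE). Eif4a3, the helicase of the exon junction complex, differed by -0.04. The scaffold gene Eif4g1 showed the same order, with 14.06, 14.15 and 13.74 in wild-type and 14.08, 14.20 and 13.80 in knockout, a difference of 0.04 ± 0.23 (SE). Eif4g2, a scaffold relative that cannot bind eIF4E, was at 11.43, 11.57 and 11.51 in wild-type and 11.12, 11.62 and 11.27 in knockout, a difference of -0.17 ± 0.22 (SE) with knockout 2 above all wild-type arrays.

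The probes of Eif4g3, another scaffold gene, did not run together. The probe with the highest signal differed by -0.01. A further probe was at 6.88, 6.91 and 6.92 in wild-type and 6.49, 6.38 and 6.35 in knockout, a difference of -0.50. Those groups did not overlap, as was the case for 2 of 24 further probes of the members, against 6.74% of all features, and the probe is shown for that reason, with no test. The other probes differed by -0.79 and -0.19, and the mean over the 4 probes by -0.37. Which exons these probes read is not known here.

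The cap-binding protein genes differed by less than their SE. Eif4e differed by -0.01 ± 0.21 (SE), and its further probe above the detection level by -0.19. Eif4e2, a relative that represses translation of its targets, differed by -0.07. It was at 12.39, 12.63 and 12.73 in wild-type and 12.23, 12.65 and 12.65 in knockout. Its further probes differed by 0.50 and 0.34, at much lower signals of 3.26 to 5.15 and 5.80 to 7.26. Eif4e3 was at 5.92, 6.15 and 6.84 in wild-type and 6.22, 6.03 and 6.42 in knockout, a difference of -0.08 ± 0.30 (SE) with overlapping groups. Eif4e1b, an oocyte relative, had only probes that were not above the detection level on all arrays of either genotype, and it was not tested.

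The genes of eIF3, the complex that holds the small subunit and contacts eIF4G, were lower in knockout for 12 of 13 tested subunits, with a median of -0.11 and a range of -0.37 to 0.11, but the median was 0.03 without knockout 1 and 0.00441 without scaling. The smallest unadjusted p of a subunit was 0.424 by limma, for Eif3j1. Eif3d, a subunit that can itself bind the cap of some transcripts, was at 14.62, 14.52 and 14.86 in wild-type and 14.57, 14.46 and 14.46 in knockout, a difference of -0.17 ± 0.21 (SE). Knockout 1 lay above wild-type 2, so the groups overlapped. Eif3h, a non-core subunit, was at 14.80, 14.90 and 15.31 in wild-type and 14.94, 15.03 and 14.71 in knockout, a difference of -0.11 ± 0.24 (SE). Only wild-type 3 lay above all knockout arrays.

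Eif3j1, a loosely bound subunit that reaches into the mRNA channel of the small subunit, had the largest difference in the complex. It was at 11.78, 11.33 and 11.22 in wild-type and 12.02, 10.45 and 10.76 in knockout, a difference of -0.37 ± 0.44 (SE). Knockout 1 was the highest of the 6 arrays and knockout 2 the lowest. Of its further probes, one gave 11.30, 11.75 and 11.29 in wild-type and 10.85, 11.16 and 11.00 in knockout, a difference of -0.45 with groups that did not overlap, and the other differed by 0.02. The array names this gene Eif3j, and a near-identical copy, Eif3j2, could share its probes. Eif3i was the single subunit with a positive sign, 0.11 ± 0.45 (SE), from 10.57 on knockout 1 to 12.15 on knockout 2. The other 9 subunits, Eif3a, Eif3b, Eif3c, Eif3e, Eif3f, Eif3g, Eif3k, Eif3l and Eif3m, differed by -0.21 (Eif3e) to -0.02 (Eif3a).

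**Figure D3:**
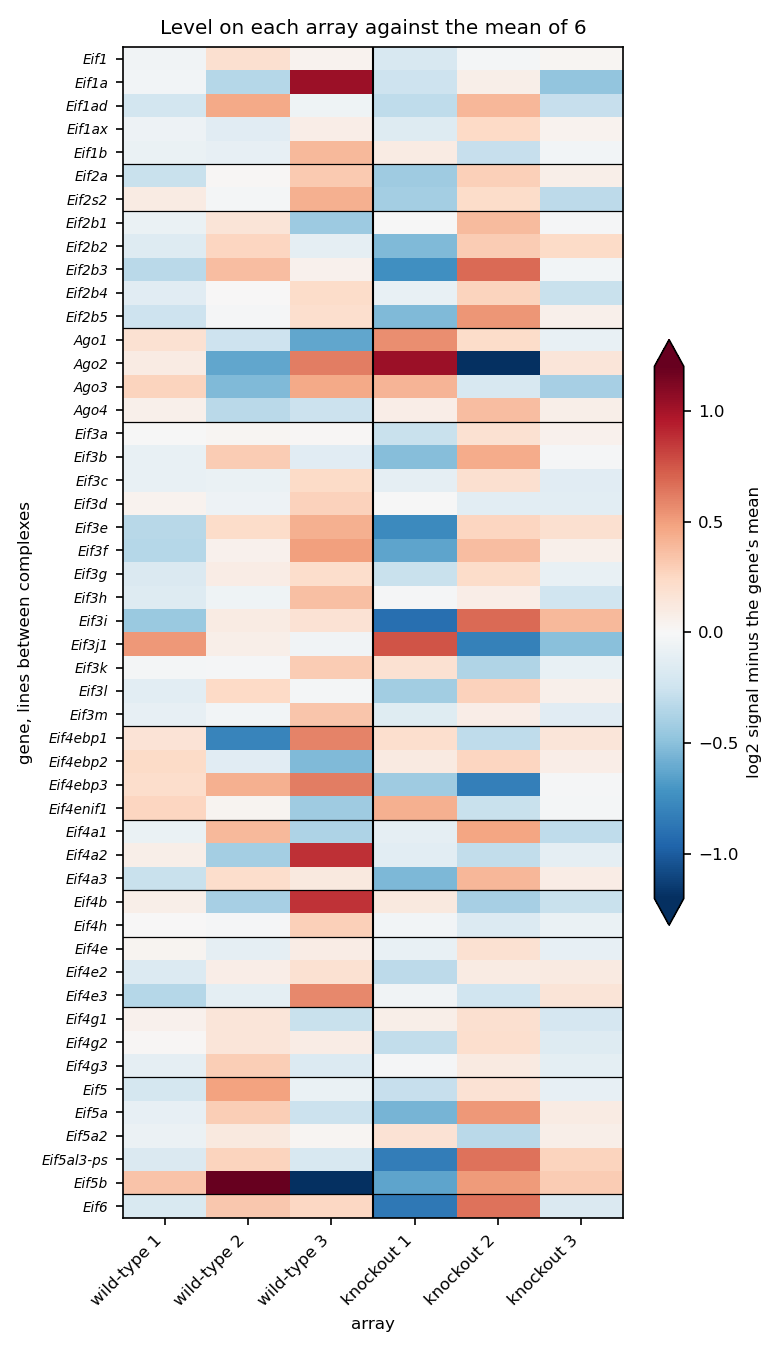
Log2 signal of each of the 50 tested genes on each array minus the mean of that gene over the 6 arrays (red above, blue below; the scale ends at 1.2 log2 units either way), with horizontal lines between complexes and a vertical line between genotypes. The column of knockout 1 is mostly blue and those of knockout 2 and wild-type 3 mostly red, while Ago2 and Eif3j1 have the opposite colours on knockout 1 and 2.

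The start-codon factors eIF1 and eIF1A were lower in knockout for 4 of 5 genes, with a median of -0.13 that stood at -0.01 without scaling. Eif1, which keeps the ribosome scanning until the start codon is met, was at 15.17, 15.40 and 15.26 in wild-type and 15.02, 15.19 and 15.24 in knockout, a difference of -0.13 ± 0.20 (SE) with overlapping groups. Eif1a was at 11.89, 11.58 and 12.95 in wild-type and 11.67, 11.99 and 11.45 in knockout, a difference of -0.44 ± 0.39 (SE). Wild-type 3 alone lay apart from the other 5 arrays. Eif1ad, named for an eIF1A-like domain, was at 12.79, 13.46 and 12.95 in wild-type and 12.70, 13.40 and 12.73 in knockout, with replicate 2 highest in both genotypes, a difference of -0.13, and a further probe at 0.17. Eif1b differed by -0.14, and Eif1ax, which is X-linked, by 0.08 ± 0.21 (SE).

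Eif2s2, the beta subunit of eIF2, was at 13.52, 13.40 and 13.85 in wild-type and 13.02, 13.65 and 13.11 in knockout. Knockout 1 and 3 lay below all wild-type arrays and knockout 2 between them, and the difference was -0.33 ± 0.26 (SE, unadjusted p = 0.247 by limma). A further probe of the gene had the opposite sign, 0.13. Eif2a, a separate single-chain factor that can bring initiator tRNA to the ribosome, was at 8.82, 9.10 and 9.40 in wild-type and 8.66, 9.37 and 9.16 in knockout, a difference of -0.04 ± 0.28 (SE).

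The 5 subunits of eIF2B, whose human counterparts are mutated in vanishing white matter disease, had a median difference of 0.0030 and a range of -0.06 to 0.24. Eif2b1, the regulatory alpha subunit, was at 10.92, 11.15 and 10.56 in wild-type and 10.99, 11.38 and 10.98 in knockout. Knockout arrays lay high in the range with an overlap at wild-type 2, and the difference was 0.24 ± 0.25 (SE). Eif2b4 was at 12.44, 12.58 and 12.80 in wild-type and 12.49, 12.84 and 12.31 in knockout, a difference of -0.06 ± 0.24 (SE). Knockout 2 was the highest of the 6 arrays for 5 of 5 subunits and knockout 1 the lowest for 3 of 5, Eif2b5, the catalytic epsilon subunit, among them with 9.54 on knockout 1 and 10.60 on knockout 2.

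The late factors had a median difference of 0.04 over 5 genes. Eif5, which makes eIF2 hydrolyse GTP, was at 13.53, 14.22 and 13.66 in wild-type and 13.46, 13.90 and 13.64 in knockout, a difference of -0.13 ± 0.27 (SE) with replicate 2 highest in both genotypes. Eif5a, the hypusine-carrying factor of elongation and termination, was at 13.65, 14.04 and 13.49 in wild-type and 13.19, 14.26 and 13.85 in knockout, a difference of 0.04 ± 0.33 (SE). Its pseudogene Eif5al3-ps, which could share its probes, differed by 0.06. Eif5a2 was at 8.77, 8.95 and 8.86 in wild-type and 9.01, 8.51 and 8.90 in knockout, a difference of -0.06 ± 0.23 (SE).

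Eif5b, the GTPase of subunit joining, was at 4.02, 4.90 and 1.93 in wild-type and 3.05, 4.19 and 3.99 in knockout, below the detection level on wild-type 3, and its difference of 0.12 ± 0.76 (SE) carries little information. Eif6, which keeps the ribosomal subunits apart, was at 12.28, 12.78 and 12.71 in wild-type and 11.61, 13.11 and 12.29 in knockout, a difference of -0.26 ± 0.40 (SE). Both the highest and the lowest value were on knockout arrays, and a further probe of Eif6 differed by -0.20 with the same arrays at its ends.

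The Argonaute genes had a median difference of 0.14. Ago4 was at 8.39, 8.01 and 8.07 in wild-type and 8.41, 8.70 and 8.40 in knockout. Every knockout value exceeded every wild-type value, by hundredths in the case of wild-type 1, and the difference was 0.35 ± 0.22 (SE, unadjusted p = 0.163 by limma). Ago1 was at 8.12, 7.68 and 7.31 in wild-type and 8.49, 8.15 and 7.84 in knockout. Each knockout array was above the wild-type array of the same number, but the groups overlapped, and the difference was 0.46 ± 0.30 (SE, unadjusted p = 0.170 by limma). Ago3 differed by -0.13 ± 0.35 (SE).

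Ago2, the Argonaute protein that can cut its target RNA, spread more widely than any other member detected on all arrays, with 12.14, 11.42 and 12.66 in wild-type and 13.07, 10.79 and 12.19 in knockout. Knockout 1 was the highest array and knockout 2 the lowest, and the difference was -0.06 ± 0.61 (SE). The 6 erythroblast markers, cells that newborn liver still holds, were on the same 2 arrays at their highest and lowest summed signal, 223025 on knockout 1 and 64459.7 on knockout 2, against 169362 to 184836 on the other 4. Hemgn was the exception among them, with its lowest value, 15.03, on knockout 1 and 15.46 on knockout 2. All 6 were detected on every array, and their part in the spread of Ago2 was not tested. A further Ago2 probe spread less, from 9.94 on knockout 2 to 10.40 on knockout 1, and differed by 0.08, the opposite sign. Another 2 probes, which the array files under other names that are synonyms of Ago2, were left out of the fit. Both had a higher mean signal than the probe that stands for Ago2 here, and both differed by 0.30.

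The median of the members varied among arrays of the same genotype. Measured against the mean of each gene over the 6 arrays, the median of the 50 members was -0.08, 0.04 and 0.15 on wild-type 1 to 3 and -0.15, 0.20 and -0.03 on knockout 1 to 3, where features of like level stood between -0.05 and 0.07. Knockout 1 was the lowest of the 6 arrays for 23 of 50 members, against 15.1% of all features. Knockout 2 was the highest for 21 of 50 (20.8% of all features) and wild-type 3 for 19 of 50 (21.3% of all features).

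Between arrays of the same number the direction changed. Knockout 1 was below wild-type 1 for 33 of 50 members (43.3% of all features were below), with a median of -0.09. Knockout 2 was above wild-type 2 for 34 of 50 (48.4% of all features were above), with a median of 0.13. Knockout 3 was below wild-type 3 for 33 of 50 (50.7% of all features were below), with a median of -0.21. Among the 4038 features of like level, knockout 1 was below for 2053, knockout 2 above for 2116 and knockout 3 below for 2060. Lower in all 3 pairs were 6 members (10.8% of all features) and higher in all 3 were 4 (12.7% of all features). The median of the members ran from -0.17 without knockout 2 to 0.01 without knockout 1. It was -0.09 without wild-type 3, knockout 2 and knockout 3, the arrays with muscle transcripts, where the median of all features was 0.09. Without the arrays with a Y-linked signal the median was -0.05 for the members and -0.03 for all features. The part of the differing cell content of the arrays in these shifts was not tested.

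**Figure D4:**
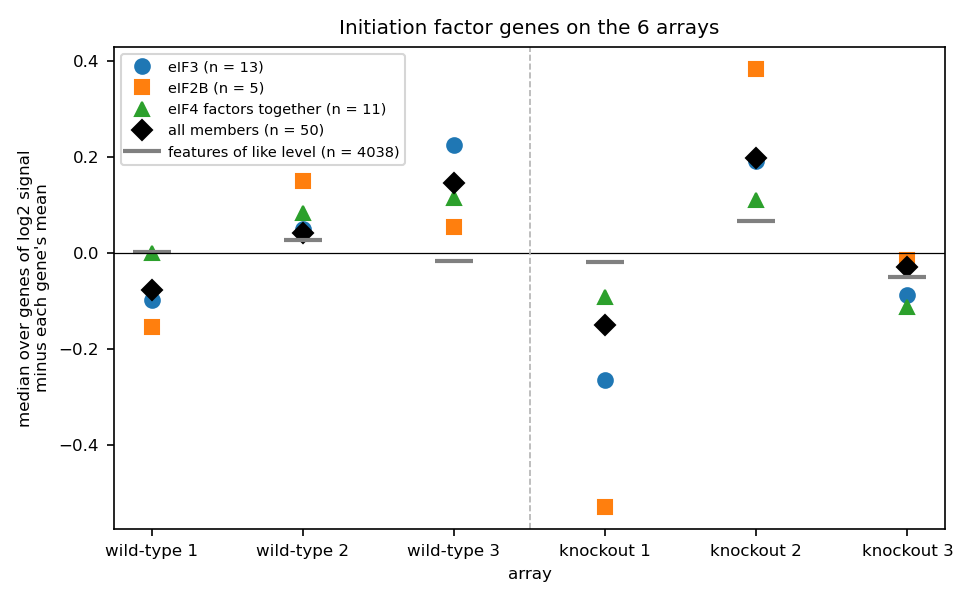
Median over genes of the log2 signal minus the mean of each gene, on each of the 6 arrays, for all 50 members, eIF3, eIF2B and the eIF4 factors (11 genes), with grey bars for features of like signal level. The members stand lowest on knockout 1, at -0.15, and highest on knockout 2, at 0.20, so the knockout arrays enclose the wild-type arrays.

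Other genes of the pathway gave no call either. Of 11 genes of elongation and release, 8 were lower, with a median of -0.08 and 0 past the threshold. Eef2, the translocase of elongation, was at 15.63, 15.78 and 16.11 in wild-type and 15.45, 15.66 and 15.44 in knockout, a difference of -0.33 ± 0.22 (SE), Eef1b2, an exchange factor, differed by -0.22 ± 0.22 and Gspt2, a release factor, by 0.25 ± 0.22. Of 16 poly(A)-binding and cap-proximal partners 9 were lower, with a median of -0.02 and a range of -0.20 to 0.24. Ncbp1, a nuclear cap-binding protein, differed by -0.16, Pdcd4, an inhibitor of eIF4A, by 0.24, and Larp1, which binds terminal oligopyrimidine transcripts, by 0.17. A further Larp1 probe was at 10.23, 9.76 and 10.40 in wild-type, a range that enclosed its knockout values of 10.34, 9.83 and 10.01. The 3 mitochondrial initiation genes differed by -0.08 to -0.01.

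Of 13 genes that signal to eIF4 through mTORC1 or MAPK, 9 were lower with a median of -0.05, and none had an adjusted p under 0.05. Tsc2, an inhibitor of mTORC1, was at 4.20, 5.07 and 4.24 in wild-type and 4.99, 5.34 and 5.28 in knockout, a difference of 0.70 ± 0.30 (SE, unadjusted p = 0.0546 by limma) with an overlap at wild-type 2. Mtor differed by 0.35 ± 0.33 (SE) and Mknk2, a kinase of eIF4E, by -0.32 ± 0.33 (SE). A further Mtor probe was at 7.19, 7.96 and 8.94 in wild-type, a range that enclosed its knockout values of 7.61, 8.06 and 8.24. The groups of a further Mknk2 probe overlapped.

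The genes that follow when eIF2 is phosphorylated, the output of the integrated stress response, were lower for 12 of 14 tested genes, with a median of -0.61 and 0 past the threshold. Against the mean of wild-type 1 and 2, the median of this list was 1.47 on wild-type 3. On the knockout arrays it was between -0.14 and 0.14, so the median stood apart on 1 wild-type array. Not every gene did. By the same measure Phgdh was at -0.85, Asns at -0.19, Sesn2 at -0.16 and Psat1 at 0.08 on wild-type 3. Chac1, a glutathione-degrading enzyme, was at 6.65, 6.54 and 8.97 in wild-type and 4.48, 6.71 and 5.97 in knockout, a difference of -1.67 ± 0.82 (SE). Cebpb, a transcription factor, was at 12.35, 12.79 and 14.51 in wild-type and 12.66, 11.98 and 12.64 in knockout, a difference of -0.79 ± 0.57 (SE). Phgdh, the first enzyme of serine synthesis, had the opposite sign, a difference of 0.67 ± 0.34 (SE). Its wild-type mean was 11.40 ± 0.59 and its knockout mean 12.07 ± 0.26 (SD), with its lowest value, 10.83, on wild-type 3. Wild-type 3 was also the array on which Eif1a, Eif4a2 and Eif4b were highest and, with knockout 3, one on which the immediate early genes were high, and the part of these in one another was not tested.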

How the data were processed

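Linear signal intensity of 55681 probes on 6 arrays was deposited by the authors; Agilent Feature Extraction is named per the submitters' processing notes, with no version, and the table holds no flags or background. A second deposited table holds log2 values, which quantile normalization, log2 and centring of each probe on its median gave back within 0.01 for at least 99.96% of probes on every array; its column medians were 0.005, 0.001 and 0.004 (wild-type) and 0.001, -0.011 and -0.011 (knockout). Here intensities were scaled to each array's 75th percentile, floored at 1 and put on log2. Detection meant a signal over the array's 30th percentile, and testing needed it on all 3 arrays of a genotype, which left 30929 features. Of these, 21627 were named genes with 1 probe each, and the others were unnamed probes, each its own feature. Symbols were updated through RefSeq (GRCm38.p6). Knockout was compared with wild-type by limma 3.58.1 in R 4.3.3 (lmFit and eBayes, two-sided, no covariates, Benjamini-Hochberg over all features, threshold 0.05); 3 against 3 arrays cannot go below p = 0.1 in an exact permutation test, and the number of arrays limits the precision.

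Same-numbered arrays correlated at 0.36, 0.26 and 0.30 after removal of group means, a pairing that the labels do not state. The fit above is unpaired; the number entered as a block only in an alternative. On simulated data with 30929 features the fit recovered 0.4%, 32%, 69.2% and 91.2% of features changed by 1, 2, 3 and 4 on the log2 scale. Each run had 200 changed features, simulated arrays that were independent of each other, and 7.4 false calls on average. The members, complexes and lists were chosen with earlier results of these data known. Values on every array are given for the 2 smallest unadjusted p and the highest signal in each complex, for members whose groups do not overlap or that were not detected throughout, and for those whose probes differ in sign; other values shown were chosen after they were seen. The feature past the threshold and some genes are not reported here. Alternatives were 3 scalings, the authors' values, detection at other percentiles or none, 16 added before log2, the mean over probes, an intensity trend, array weights, the replicate number as a block and arrays left out.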

Additional observations from a re-analysis of the deposited data

How the results depend on the processing

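No initiation factor gene passed an adjusted p of 0.05 under any of the 19 alternatives with a test, and the number at an unadjusted p under 0.05 was 0 or 1, against 658 to 1984 features. Features past the threshold, 1 in the main analysis, were 2 with median scaling, 4 with detection at the 40th percentile, 0 with no filter, 2 with an intensity trend, 6 with array weights and 0 with the replicate number as a block. They were 0 to 1 with 1 array left out, and 0 without the arrays with a Y-linked signal, an alternative chosen after seeing the data. The block gave an unadjusted p of 0.0175 and an adjusted p of 0.921 for Eif4ebp3, and changed no call of a member. Of 999 member values over the alternatives, 971 moved by less than the spread between replicates and 28 by more. The count of 971 is not a measure of stability. Leaving out 1 of 3 arrays cannot move a difference by that spread while the probe stays the same. The intensity trend, the block and the detection settings leave a difference unchanged unless the probe changes. Of the 28, 25 came with wild-type 3, knockout 2 and knockout 3 left out together, which leaves 1 knockout array and no test. In that setting the median difference was 0.57 for the Argonaute genes, -0.40 for eIF2B, 0.13 for eIF4B and eIF4H, -0.65 for eIF5, eIF5A and eIF5B and -0.93 for Eif6. Without scaling the eIF1 and eIF1A median was -0.013. The cause was not tested, beyond fewer arrays where arrays were left out. Simulated differences of 1 on the log2 scale were recovered in 0.4% of features. Under that simulation, changes of the size seen here would seldom be called at 3 arrays a genotype. The simulated arrays lacked the shifts of marker genes seen on the real ones, so the share is only a guide.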
